A study of Homo sapiens with 12 samples.

Results

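The fed vector HEK293T cells are the unstarved, empty-plasmid group of a study of TRPML3, the endolysosomal channel made from MCOLN3, and they were read here as a baseline transcriptome. HEK293T is an established human line derived from embryonic kidney that takes up plasmids readily. These cells were grown in medium with 10% fetal bovine serum and transfected with 1 µg of a control vector, and they were never deprived of serum. The group was chosen by its labels, control vector and serum-fed, and holds 3 of the 12 libraries of the series, which has 4 groups. The labels describe the libraries of a group as biological replicates. RNA was enriched for polyadenylated transcripts before sequencing, so histone mRNAs and other transcripts without a poly(A) tail are under-represented by design. All these cells had been through a transfection, and no untransfected library was used here.

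A growing line such as HEK293T devotes much of its mRNA to making protein: ribosomal proteins, elongation factors and the chaperones that fold the products. Which tissue-specific genes stay on is what separates one line from another. HEK293T cells are widely used to express cloned ion channels and receptors, so the channels and receptors that the cells make themselves are the background of such experiments. Levels are given as CPM, the count of a gene row scaled to a common library total of 1000000 counts. Where different genes are set against each other, levels are given per length, as TPM, in which the count is first divided by the length of the annotated exons. A row was called expressed when it had at least 1 CPM in every library, silent when it had at most 3 counts in every library, and low otherwise.

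The 3 libraries held 34059864, 41024433 and 34723216 counts in replicates 1, 2 and 3, so 3 counts corresponded to 0.0881, 0.0731 and 0.0864 CPM. Of 41878 gene rows, 12875 were expressed, 9193 were low and 19810 were silent, and 15963 of the silent rows had no count in any library. Of 19243 protein-coding rows, 11661 (60.6%) were expressed and 3445 (17.9%) were silent. The gene lists were read against these shares. Of 5170 long non-coding RNA rows 587 were expressed, and of 10159 pseudogene rows 523 were. The expressed rows spanned a wide range: 3725 had a mean of 1 to 10 CPM, 6760 a mean of 10 to 100 CPM, 2294 a mean of 100 to 1000 CPM, and 96 a mean of at least 1000 CPM. A silent row was not detectable at this depth, while a low row may still be well detected in 1 or 2 libraries. Fewer cells that express a gene and less RNA per cell cannot be told apart.

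The genes with the most counts were those of translation, protein folding and the mitochondrial genome. Promoter sequence of some of them is shown first, because many share a feature at the annotated start of the transcript. Messenger RNAs of ribosomal proteins and elongation factors are known for a terminal oligopyrimidine tract, a C at the first base followed by a run of C and T, through which nutrient signalling by mTORC1 controls their translation. The windows below are 30 bases of RefSeq promoter sequence (GRCh38.p14), 15 before and 15 from the annotated start, in the direction of transcription. Capitals mark a run of at least 5 pyrimidines that begins with C at the start itself, where there is one.
EEF1A1 (chr6:73521018-73521047, minus strand): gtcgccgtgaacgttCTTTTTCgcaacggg
NPM1 (chr5:171387834-171387863, plus strand): cggggagcctgcgtcCTTTCCCTggtgtga
EEF2 (chr19:3985449-3985478, minus strand): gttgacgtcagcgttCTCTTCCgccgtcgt
RPS3A (chr4:151099613-151099642, plus strand): cgactcccacttccgCCCTTTTggctctct
SERBP1 (chr1:67430388-67430417, minus strand): gagaagacggcccccCTCTCTCggcccggc
HSP90AA1 (chr14:102139735-102139764, minus strand): gcttgtttacggcccgactgcgcaggcgtg
HSPA5 (chr9:125241329-125241358, minus strand): ggcgacggtgaggtcgacgccggccaagac
RPL4 (chr15:66504841-66504870, minus strand): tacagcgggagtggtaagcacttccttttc
NCL (chr2:231464470-231464499, minus strand): tcagtctttcgcctcagtctcgagctctcg
The first 5 windows hold a run. The windows of the chaperones HSP90AA1 and HSPA5, of the ribosomal protein gene RPL4 and of NCL, the gene of nucleolin, do not. Of the 20 most abundant rows, 12 had a promoter entry and 6 of these had such a run, the sixth being PTMA, the gene of prothymosin alpha. The run was searched on the transcribed strand only, at any start listed for a gene. It was found in 966 of 15261 protein-coding rows with an entry (6.33%), in 48 of 68 cytosolic ribosomal protein genes (70.6%) and in 36 of 86 rows among the 100 with the highest CPM (41.9%). Among expressed protein-coding rows it was found in 7.69%, and among silent rows in 3.19%. The ribosomal protein genes and the 100 rows overlap: 96 rows had a mean of at least 1000 CPM, and 27 of these were ribosomal protein genes. A match describes the letters at an annotated start and is no measurement of translation.

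The row with the most counts was MT-RNR2, the large ribosomal RNA of the mitochondrion, with 19738, 4556.5 and 14112 CPM in replicates 1, 2 and 3. EEF1A1, the elongation factor that brings aminoacyl-tRNA to the ribosome, followed with 8024, 5999 and 10481 CPM. HNRNPA1, a splicing and mRNA-export protein, had 4553, 4369 and 3623 CPM. Replicate 2 was lowest for MT-RNR2 and EEF1A1 and replicate 3 for HNRNPA1, so the libraries did not keep 1 order. NPM1, the nucleolar protein nucleophosmin, had 4221, 3093 and 4263 CPM, and EEF2, the elongation factor that moves the ribosome along the mRNA, had 3489, 3668 and 3185 CPM. PTMA had 3628, 3730 and 2700.2 CPM. Of the 20 rows, 15 were nuclear protein-coding genes and 5 were mitochondrial. Between the highest and the lowest library, 11 lay within 1.5-fold and 8 were over 2-fold apart. The share over 2-fold apart was 32.1% of all expressed protein-coding rows and 20.8% of rows with a mean above 1000 CPM.

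Of the 33 chaperone genes listed, all expressed, 6 were over 2-fold apart between the highest and the lowest library, against 32.1% of all expressed protein-coding rows. Their median was 732 CPM, and the share was 14.9% among rows at 300 to 1000 CPM and 20.8% above 1000 CPM. The 3 described next are among the 6 chaperone genes. HSP90AA1, the heat-inducible cytosolic HSP90, had 2953, 5884 and 2668 CPM, with replicate 2 above both others. HSPA5, the BiP chaperone of the endoplasmic reticulum, had 3265, 4538 and 1182 CPM, with replicate 3 below both others. HSP90B1, the HSP90 of the endoplasmic reticulum, had 4014, 1646 and 2687 CPM. The 2 reticulum chaperones therefore did not follow each other: HSPA5 was highest in replicate 2, where HSP90B1 was lowest. CANX, the calnexin gene of the same compartment, had 2852, 3320 and 2891 CPM and was within 1.16-fold.

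**Figure D1:**
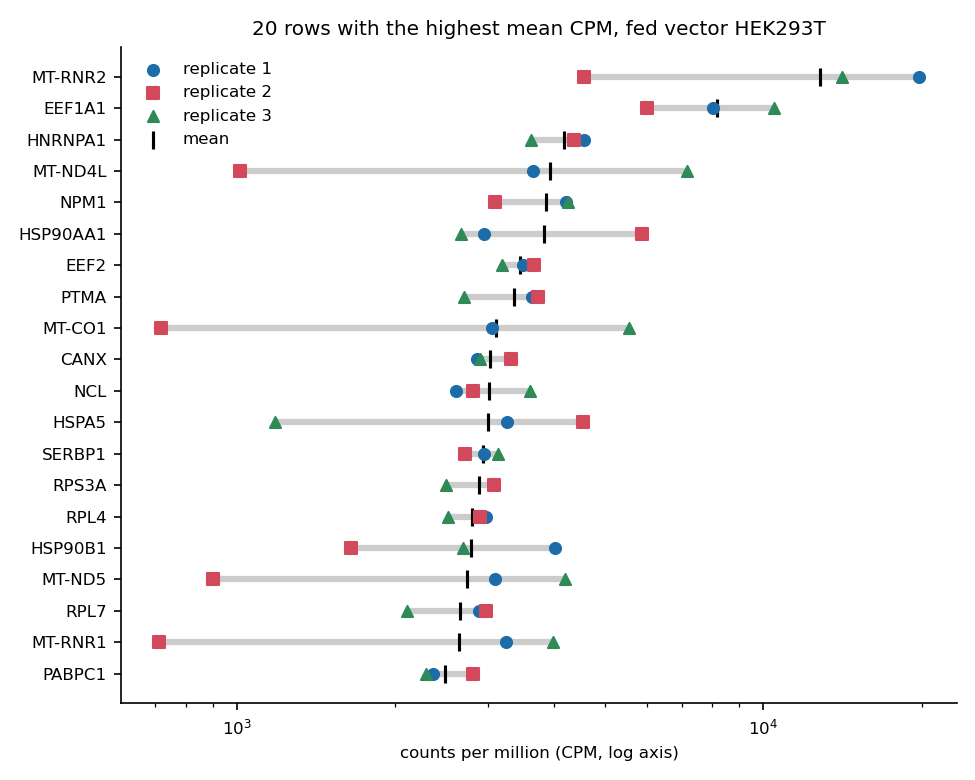
CPM (log axis) of the 20 rows with the highest mean, 1 symbol per replicate, a bar from the lowest to the highest library and a tick at the mean. EEF2, CANX and SERBP1 are tight, while the 5 mitochondrial rows are spread, with replicate 2 lowest in each.

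Per length, the order of the most abundant genes was different. Of the 10 protein-coding genes with the highest TPM, 8 were mitochondrial, led by MT-ND4L with 43922 ± 31509 TPM (SD, n = 3) and MT-ATP8 with 38392 ± 31309 TPM. These encode small subunits of respiratory complex I and of ATP synthase. Both are short genes of 297 and 207 bases that overlap the neighbouring MT-ND4 and MT-ATP6, and how the deposited counts divide shared reads is not stated. MT-CO1, a core subunit of cytochrome oxidase that overlaps neither, had 6674 ± 4794 TPM. Outside the mitochondrial genome, RPL41, which encodes the smallest ribosomal protein, led with 5134 ± 934 TPM, followed by EEF1A1 with 4719 ± 817 TPM, RPS3A with 4351 ± 904 TPM, PTMA with 3514 ± 914 TPM and NPM1 with 3491 ± 295 TPM. Of these 10 nuclear genes 5 were ribosomal protein genes.

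The counts were spread over many genes. The 10 most abundant rows of a library held 5.39 ± 1.03% of its counts (SD, n = 3), the 100 most abundant 19.6 ± 1.48% and the 1000 most abundant 52.4 ± 0.892%. It took 859, 933 and 853 rows to reach 50% of the counts in replicates 1, 2 and 3. Replicate 2, the library with the fewest mitochondrial counts, was the least concentrated.

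By class, the 86 rows of cytosolic ribosomal proteins held 7.37 ± 0.862% of the counts, with 84 of them expressed. In replicates 1, 2 and 3 their share was 8.06%, 7.64% and 6.40%, and 67 of the 84 expressed rows were lowest in replicate 3 (59 with TMM scaling, which sets libraries level on the bulk of genes and not on the total). Over all expressed protein-coding rows, replicate 3 was lowest in 43.5%, or 38% with TMM. Of the 84, 6 were over 2-fold apart, against 32.1% of all expressed protein-coding rows. By level that share was 14.9% among rows at 300 to 1000 CPM and 20.8% above 1000 CPM. RPLP1, a protein of the ribosomal stalk, had 52.3, 38.5 and 381 CPM and was far higher in replicate 3, against the direction of its class. RPL4, by contrast, had 2974, 2900.3 and 2517 CPM. Ribosomal protein genes have many processed copies in the genome, and RPS2P5, a pseudogene copy of RPS2, alone had 1288, 1274 and 1110 CPM (1224 ± 99.1, SD, n = 3), beside 2433, 2267 and 2118 CPM for RPS2. Levels of such near-identical pairs are uncertain, because reads that fit both can be divided either way. EEF1A1P5, a copy of EEF1A1, likewise had 897 ± 280 CPM.

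The 37 rows of the mitochondrial genome held 4.40% (Wilson 95% interval 4.39 to 4.41), 1.07% (1.06 to 1.07) and 5.70% (5.69 to 5.71) of the counts in replicates 1, 2 and 3. The intervals cover counting error only, so the libraries differed by far more than counting error, by 5.35-fold. The low value of replicate 2 was shared by the genome's mRNAs: each of the 13 mitochondrial protein-coding genes was lowest in replicate 2 and highest in replicate 3. MT-CO1 had 3057, 719 and 5554 CPM, MT-CO2 had 1331, 267 and 3183 CPM, and MT-ND6, which lies on the opposite strand, had 1241, 334 and 1533 CPM. The ribosomal RNA MT-RNR2 was also lowest in replicate 2 but was higher in replicate 1 than in replicate 3. Nuclear genes of the respiratory chain did not share this pattern, since their 89 rows held 0.922%, 0.891% and 0.822% of the counts. Their most abundant gene ATP5F1B, the catalytic subunit of ATP synthase, had 871, 979 and 874 CPM.

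The other classes were steadier than the mitochondrial genome. Chaperones held 3.34 ± 0.333% of the counts, translation factors 3.05 ± 0.262%, and hnRNP and SR splicing proteins 2.89 ± 0.210%. Glycolysis held 0.957 ± 0.128%, led by LDHA with 1640 ± 221 CPM, LDHB with 1574 ± 214 CPM and GAPDH with 1450.2 ± 183 CPM. Actin and tubulin genes held 0.943 ± 0.029%, the mitosis list 0.546 ± 0.0498%, replication and nucleotide synthesis 0.491 ± 0.0251%, mitochondrial ribosomal proteins 0.489 ± 0.0179% and the proteasome 0.481 ± 0.0384%. Every listed gene of these classes was expressed except 1 in the replication list. A steady class could still hold a gene that was not: within mitosis, TOP2A, the topoisomerase that untangles chromosomes, had 222, 1272 and 229 CPM, while CENPF, a kinetochore protein, had 549, 614 and 606 CPM. ACTB, a common reference gene, had 873, 1089 and 1489 CPM, and GAPDH had 1414, 1649 and 1288 CPM.

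Outside protein-coding genes, long non-coding RNAs held 1.33 ± 0.116% of the counts. MALAT1, a nuclear-retained RNA of splicing speckles, had 2024, 1668 and 1749 CPM. The hosts of small nucleolar RNAs held 0.274 ± 0.0252%, with SNHG29 at 594 ± 44.5 CPM and GAS5 at 454 ± 76.0 CPM. Replication-dependent histones, whose mRNAs end in a stem-loop and not in a poly(A) tail, held only 0.0112 ± 0.00529%, with 16 of 69 rows expressed. Of 518 rows of zinc finger genes named ZNF, 394 were expressed, against 60.6% of all protein-coding rows. The 518 rows together held 1.36 ± 0.059%, led by ZNF146 with 521 ± 122 CPM.

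**Figure D2:**
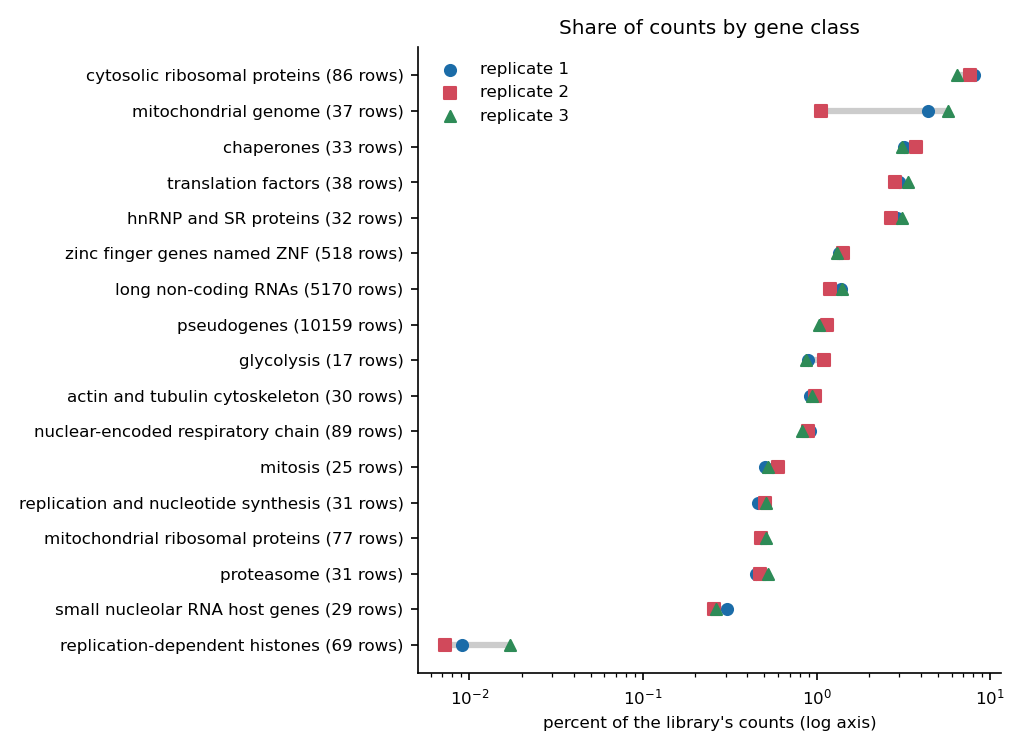
Share of a library's counts in each gene class (percent, log axis), 1 symbol per replicate and a bar from the lowest to the highest library, with the number of rows in parentheses. The mitochondrial genome has the widest bar among the abundant classes, from 1.07% to 5.70%, and replication-dependent histones are the smallest class shown.

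Lineage genes were then listed for the tissues that the label embryonic kidney could refer to or that the line has been likened to. Of 233 genes found, 81 (34.8%) were expressed and 60 (25.8%) were silent, against 60.6% and 17.9% of all protein-coding rows. Their median of mean CPM was 0.531, against 7.38 over all protein-coding rows. The expressed share was thus below that of all protein-coding rows, and the lists ranged from 0 of 9 to 13 of 19 genes expressed. No test was made between lists, and no cell type was named from them.

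Of 19 kidney progenitor genes, most of them transcription factors, 13 (68.4%) were expressed, against 60.6% of all protein-coding rows. SIX2, the factor that keeps nephron progenitors undifferentiated, had 25.5, 17.2 and 24.5 CPM. SALL1 had 19.7, 44.8 and 34 CPM, and WT1, which is needed for kidney formation, had 12.2, 10.9 and 11.4 CPM. These 3 were above 10 CPM in every library, and WT1 was nearly the same in all. PAX2, a marker of the whole nephric lineage, was lower at 5.70, 4.83 and 2.25 CPM, and LHX1, a factor of the nephric duct, had 15.6, 5.95 and 2.53 CPM. PAX8, the partner of PAX2, had 0, 0 and 0.115 CPM.

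Genes of the mature tubule were mostly low or silent. Of 15 proximal tubule genes only LRP2, which encodes the endocytic receptor megalin, was expressed, with 21, 24.3 and 9.85 CPM. Its partner receptor CUBN had 0.323, 0.829 and 1.27 CPM, and the phosphate transporter SLC34A1, the organic anion transporter SLC22A6 and the factor HNF4A had no count. In the distal nephron list, UMOD, SLC12A1, SCNN1A, SCNN1B, SCNN1G and FOXI1 had no count, and 2 of 16 genes were expressed. Of these, the factor TFCP2L1 had 1.17, 19.3 and 15 CPM, so its level rested on replicates 2 and 3. Of 11 podocyte genes 7 (63.6%) were expressed, near the 60.6% of all protein-coding rows. They were led by the adaptor CD2AP with 150, 219 and 160 CPM, which many tissues make. The slit-diaphragm gene NPHS1 had 0.675, 0.634 and 0.173 CPM.

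Of 31 neuronal genes 20 (64.5%) were expressed, near the share of all protein-coding rows, and 10 had a mean of at least 10 CPM. The neurofilament genes NEFM, with 156, 171 and 92.2 CPM, and NEFL, with 91.8, 98.8 and 67.6 CPM, were accompanied by INA, another filament subunit, with 28.9, 25.8 and 23.8 CPM. All 3 were lowest in replicate 3. MAP1B, a microtubule-associated protein of axons, had 179, 316 and 241 CPM, and UCHL1, an abundant neuronal ubiquitin hydrolase, had 107, 56.5 and 38.9 CPM. Markers of differentiated neurons were mixed. STMN2, ELAVL4 and the glutamate transporter SLC17A6 had no count. SLC17A7, another glutamate transporter, had 4.93, 7.41 and 3.02 CPM, SYT1 had 6.69, 19.3 and 16.9 CPM and MAPT had 28.3, 25.1 and 12.8 CPM. Of the 31 genes, 7 were low and 4 were silent.

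Of 24 neural progenitor and crest genes 10 (41.7%) were expressed, against 60.6% of all protein-coding rows. EN2, a midbrain and hindbrain factor, had 64.1, 70.2 and 72.1 CPM and its paralog EN1 had 11.2, 11.6 and 11.3 CPM. PAX6, a factor of eye and forebrain, had 69.4, 57.7 and 32.4 CPM. Factors of different brain regions were thus present in the same culture. Of the neural crest factors, TFAP2A had 30, 41.1 and 25.6 CPM, FOXD3 had 7.22, 7.68 and 4.98 CPM and HAND2 had 5.17, 3.85 and 2.62 CPM. TFAP2B had no count, and SOX10 had 0.440, 0.195 and 0.461 CPM.

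An adrenal origin has been discussed for HEK lines, and the adrenal lists were mostly off. In the adrenal cortex list, FDX1, a mitochondrial electron carrier, with 55.6, 64.8 and 52.2 CPM, and the lipoprotein receptor SCARB1, with 40.7, 28.9 and 47.7 CPM, were the 2 of 11 genes expressed, and both are made in many tissues. NR5A1, the factor that defines steroid-producing cells, had 0.528, 0.853 and 0.662 CPM, and CYP11A1 had no count. In the chromaffin list only GATA2 was expressed, with 36.7, 8.80 and 54.9 CPM, while TH and DBH, enzymes of catecholamine synthesis, had no count.

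Of 22 mesenchymal genes 12 (54.5%) were expressed, and of 19 epithelial genes 6 (31.6%), against 60.6% of all protein-coding rows. VIM, the intermediate filament of mesenchymal cells, had 365, 194 and 212 CPM, and the neural cadherin CDH2 had 75.9, 84.8 and 58.5 CPM. The epithelial cadherin CDH1 had 6.37, 6.95 and 5.70 CPM. Per length, CDH2 was at 52.4 TPM and CDH1 at 3.62 TPM. The simple-epithelial keratins KRT8, with 77.2, 86.5 and 81.4 CPM, and KRT18, with 38.6, 38.7 and 30.5 CPM, were present as a pair. The other keratins listed were silent: KRT7, KRT5 and KRT14 had no count and KRT19 had 0, 3 and 0 counts. TJP1, a tight-junction scaffold, had 29.8, 15.4 and 176 CPM, with replicate 3 apart. COL1A1, a chain of type I collagen, had 14.3, 0.829 and 12.8 CPM, with replicate 2 apart, so it missed the call. No mesenchymal gene was silent, but 10 of the 22 were low. Among these, PDGFRB had 0, 7 and 0 counts and COL1A2 had 0, 0 and 4 counts.

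The lists of other tissues were mostly low or silent. Of 9 hepatocyte genes none was expressed, and ALB had 0.382, 0.366 and 0.259 CPM. Of 15 leukocyte genes CD8A alone was expressed, with 2.41, 1.29 and 1.58 CPM, and the pan-leukocyte gene PTPRC had no count. Of 10 endothelial genes ESAM alone was expressed, with 5.02, 5.41 and 1.32 CPM, and VWF had no count. Without replicate 3 these 3 counts were 1, 2 and 2. Of 11 muscle genes 2 were expressed, the embryonic myosin gene MYH3 with 3.38, 5.85 and 6.34 CPM and the cardiac factor NKX2-5 with 3.11, 6.70 and 5.79 CPM. The pluripotency list was split by gene: LIN28B, an RNA-binding protein that blocks let-7 maturation, had 191, 106 and 150 CPM and the DNA methyltransferase DNMT3B had 29.7, 31.4 and 34.4 CPM. NANOG had at most 3 counts in any library and POU5F1 had 0.528, 0.951 and 1.70 CPM.

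**Figure D3:**
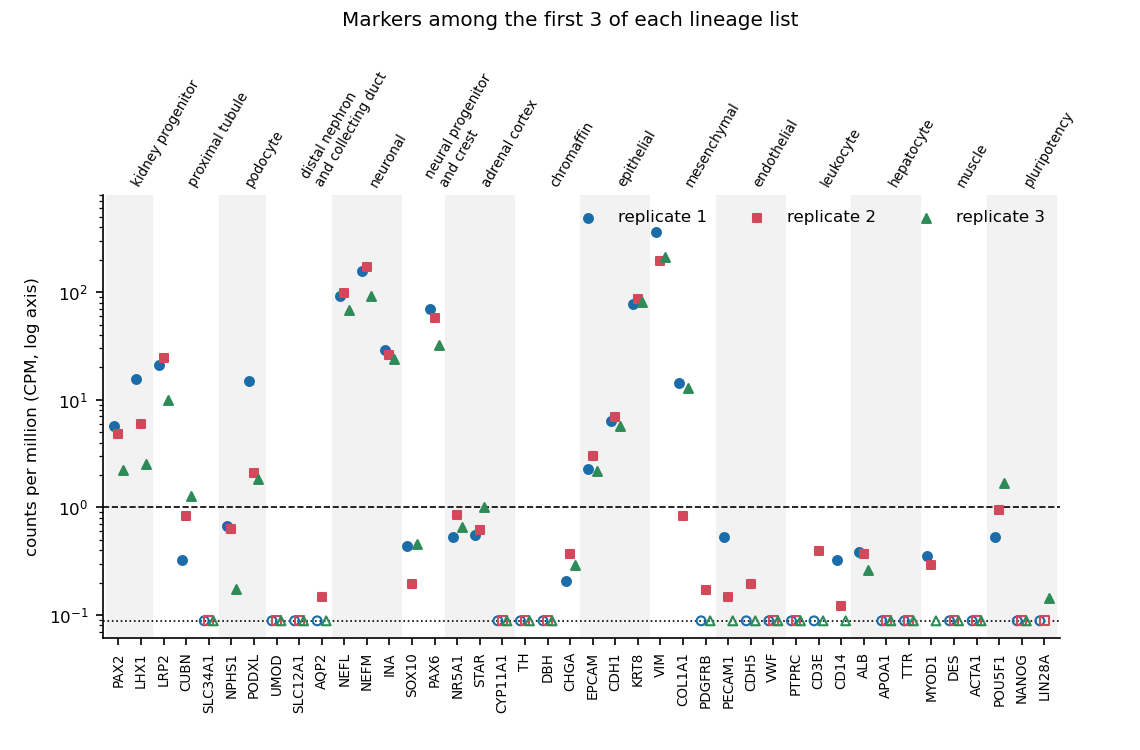
CPM (log axis) of markers among the first 3 of each lineage list, 1 symbol per replicate. The dashed line is 1 CPM, and open symbols on the dotted line stand for values at or under the floor of 3 counts in the smallest library. LRP2, NEFL, NEFM, INA, PAX6, KRT8 and VIM lie clearly above 1 CPM in all libraries, and the hepatocyte, endothelial and leukocyte markers do not.

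Expressed and silent genes also differed in the sequence before their starts. CG dinucleotides, the sites of DNA methylation, are dense in promoters of broadly used genes. In the 250 bases before the RefSeq start, the median number of CG was 21 (quartiles 15 and 28) in 9619 expressed protein-coding rows, 9 in 3075 low rows and 3 (quartiles 1 and 9) in 2567 silent rows. Over all 15261 rows the median was 17 (quartiles 7 and 25). The list genes followed the same order: 18 in expressed and 5 in silent lineage genes, 22.8 and 6.5 in channel genes, and 19.5 and 5 in receptor genes. Methylation of these promoters was not measured, and a count of CG is not a measurement of it. Upstream sequences of 2 expressed and 2 silent genes are shown because they span this range: LRP2 and SLC34A1 from the proximal tubule list, EN2 from the neural list and UMOD, the most abundant protein of urine, from the distal nephron list. They were chosen after their values were seen, among genes with a single start. Each is written from the base 250 before the start to the base just before it, with CG in capitals.
LRP2 (chr2:169362535-169362784, minus strand): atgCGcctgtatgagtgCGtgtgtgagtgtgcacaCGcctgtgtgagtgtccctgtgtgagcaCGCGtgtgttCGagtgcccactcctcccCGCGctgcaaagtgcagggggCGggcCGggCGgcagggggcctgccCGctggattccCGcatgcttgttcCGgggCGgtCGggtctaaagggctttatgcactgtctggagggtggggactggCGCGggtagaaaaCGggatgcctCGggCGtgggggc
SLC34A1 (chr5:177384184-177384433, plus strand): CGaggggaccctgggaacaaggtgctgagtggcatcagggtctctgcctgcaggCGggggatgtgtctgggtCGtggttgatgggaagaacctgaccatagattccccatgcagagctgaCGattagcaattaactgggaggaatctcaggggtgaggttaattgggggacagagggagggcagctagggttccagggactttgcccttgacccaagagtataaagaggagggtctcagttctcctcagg
EN2 (chr7:155457879-155458128, plus strand): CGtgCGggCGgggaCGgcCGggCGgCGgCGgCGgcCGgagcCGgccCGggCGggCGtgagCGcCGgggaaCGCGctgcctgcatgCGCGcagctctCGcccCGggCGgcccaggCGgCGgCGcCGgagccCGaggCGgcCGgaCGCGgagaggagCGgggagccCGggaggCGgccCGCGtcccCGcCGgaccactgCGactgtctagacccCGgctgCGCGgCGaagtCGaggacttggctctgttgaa
UMOD (chr16:20352716-20352965, minus strand): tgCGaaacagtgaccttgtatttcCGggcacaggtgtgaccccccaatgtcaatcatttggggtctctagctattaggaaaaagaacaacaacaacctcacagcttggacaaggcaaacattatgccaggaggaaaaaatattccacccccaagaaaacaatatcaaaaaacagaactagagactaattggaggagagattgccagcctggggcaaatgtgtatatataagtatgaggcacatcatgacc
LRP2 has 21 CG and EN2 has 45, while SLC34A1 has 4 and UMOD has 2.

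Most ion channel genes were not expressed. Of 252 channel genes 87 (34.5%) were expressed and 49 (19.4%) were silent, and their median of mean CPM was 0.734, against 60.6%, 17.9% and 7.38 CPM for all protein-coding rows. The largest expressed share was in the list of store-operated, intracellular calcium and mechanosensitive genes (78.9%). Chloride and volume-regulated anion channels (56.7%) and voltage-gated calcium channels (55.6%) came next. Ligand-gated and acid-sensing genes had the smallest share, 15.4%. Only 38 of the 252 had a mean of at least 10 CPM, against 46.3% of protein-coding rows.

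MCOLN3 itself (ENSG00000055732), the gene whose product the study overexpresses in other samples, had 18.5, 13.1 and 18.5 CPM. The channel gene was thus detected in every vector library. Its paralogs MCOLN2 and MCOLN1, which encode the other two TRPML channels, had 15.8, 18.2 and 25.3 CPM and 6.93, 4.05 and 5.70 CPM. Per length, MCOLN2 was at 19.9 TPM, MCOLN3 at 8.74 TPM and MCOLN1, the widely made member of the family, at 4.86 TPM. Of 27 TRP channel genes 9 (33.3%) were expressed, against 60.6% of all protein-coding rows. TRPM7, a magnesium-permeable channel fused to a kinase, was the highest at 23.6 TPM, with 120, 67.3 and 64.6 CPM, followed per length by MCOLN2 and by TRPC1 with 14.5 TPM. PKD2, the polycystin channel of primary cilia, had 3.88, 18.7 and 15.1 CPM, with replicate 1 below both others. TRPC6 and TRPV5 had no count, and TRPV1, the capsaicin receptor, had 0.264, 0.219 and 3.92 CPM.

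Of 19 store-operated, intracellular calcium and mechanosensitive genes, listed together, 15 (78.9%) were expressed, against 60.6% of all protein-coding rows. STIM1, the calcium sensor of the endoplasmic reticulum, had 68.2, 66.6 and 52.1 CPM, and the inositol trisphosphate receptor ITPR3 had 67.8, 69.3 and 50.3 CPM. The mitochondrial uniporter MCU had 25.2, 32.8 and 61.2 CPM. STIM2 had 3.05, 25.3 and 19.6 CPM, and ITPR1 and ITPR2 were also lowest in replicate 1, with 7.13 against 21 and 17.3 CPM and 22.6 against 61.1 and 52.3 CPM. The pore gene ORAI3 had 0.206, 2.80 and 0 CPM, and the mechanosensitive channel PIEZO2 had no count.

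Chloride and volume-regulated anion channels were expressed in 17 of 30 genes (56.7%), near the 60.6% of all protein-coding rows. ANO6, a scramblase and channel, had 117, 164 and 99.4 CPM, and the endosomal exchanger CLCN3 had 86.8, 161 and 122 CPM. All 5 LRRC8 genes, the subunits of the volume-regulated anion channel, were expressed. LRRC8A, the obligatory subunit, had 37.5, 61.1 and 37.1 CPM (31 TPM), above LRRC8B at 20 TPM, LRRC8D at 18.7 TPM and LRRC8C at 17.1 TPM. PACC1, the proton-activated chloride channel, had 35.5, 2.73 and 26.2 CPM, with replicate 2 apart. CFTR was low.

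Voltage-gated channels were present at low levels. Of 40 voltage-gated potassium genes 12 (30%) were expressed, against 60.6% of all protein-coding rows, led in counts by KCNC4 with 17.9, 19.4 and 13.2 CPM. Of 15 sodium channel genes 6 (40%) were, led by SCN8A with 8.10, 10.7 and 5.04 CPM. Of 18 calcium channel genes 10 (55.6%) were expressed, near the share of all protein-coding rows, with the T-type pore gene CACNA1H at 14.3, 11.1 and 11 CPM. The other potassium channels gave 8 of 38, or 14 without replicate 3, led by KCNJ8, a pore subunit of ATP-sensitive channels, with 18.9, 18.8 and 14.7 CPM. KCNG3 was present in a single library, with 0, 9.75 and 0 CPM. Of 65 ligand-gated and acid-sensing genes 10 were expressed and 21 were silent, and 19 had at least 1 CPM in at least 2 libraries. The proton-gated channel ASIC1 had 43.4, 41.1 and 26.8 CPM. The AMPA receptor genes GRIA1 and GRIA3 and the GABA-A receptor alpha subunits GABRA3, GABRA4, GABRA5 and GABRA6 had no count. CHRNA3, a nicotinic subunit, had 18, 0.195 and 11.7 CPM.

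Receptor lists ranged from largely on to largely off. Of 374 receptor genes 157 (42%) were expressed and 83 (22.2%) silent, with a median of mean CPM of 1.01. Receptor tyrosine kinases (34 of 54), nuclear receptors (31 of 48), TGF-beta, BMP and cytokine receptors (30 of 44) and frizzled, adhesion and class C receptors (28 of 48) had between 58.3% and 68.2% of their genes expressed, around the 60.6% of all protein-coding rows. Aminergic receptors (3 of 35) and peptide and chemokine receptors (13 of 74) had 8.57% and 17.6%. Without replicate 3 the aminergic count was 6.

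Among tyrosine kinases, IGF1R, the receptor of insulin-like growth factor 1, had 90.4, 123 and 59.8 CPM, INSR, the insulin receptor, had 64.2, 78.1 and 57.4 CPM, and MET, the receptor of hepatocyte growth factor, had 82.1, 57.3 and 51.7 CPM. Per length these were close, at 23.5, 22.6 and 31.7 TPM. EGFR, the epidermal growth factor receptor, was lower with 11.6, 27.9 and 8.84 CPM. ALK, ROS1 and MUSK were silent. The cytokine receptor subunit IL6ST, shared by the interleukin 6 family, had 172, 238 and 187 CPM and IFNGR1 had 149, 178 and 104 CPM. The lymphocyte subunits IL2RA, IL2RB, IL2RG and IL7R were silent.

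Among nuclear receptors, NR1D2, a repressor of the circadian clock, had 129, 176 and 158 CPM, and NR2F2, a developmental receptor also called COUP-TFII, had 173, 131 and 131 CPM. NR3C1, the glucocorticoid receptor, had 59.2, 55.3 and 27.9 CPM. HNF4G rested on replicate 3, with 0.0587, 0.0731 and 8.01 CPM. Of the Wnt receptors, FZD6 had 88.1, 102 and 88.6 CPM and FZD3 had 39.7, 53.2 and 54.6 CPM, and the Hedgehog transducer SMO had 26.5, 25.5 and 24.5 CPM.

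Of 38 purinergic, lipid and protease-activated receptors 9 (23.7%) were expressed, against 60.6% of all protein-coding rows. P2RY1, an ADP receptor, had 41.8, 35.4 and 24.2 CPM, F2RL1, a protease-activated receptor, had 28.6, 32.1 and 23.8 CPM, and LPAR3, a lysophosphatidic acid receptor, had 33.1, 29.6 and 11.2 CPM. LPAR1 had 0.0881, 10.1 and 0.202 CPM, so replicate 2 alone carried it. CHRM3, the muscarinic receptor M3, had 4.70, 9.21 and 8.47 CPM and led the 3 aminergic receptors expressed, with HTR7 and ADRA2C. DRD1, DRD3 and DRD5 were silent. The peptide receptor list had 31 silent genes of 74, and its highest expressed member CALCRL, a receptor of the calcitonin family, had 20.5, 23.1 and 6.28 CPM. ADCYAP1R1, a receptor of the peptide PACAP, had 21.4, 5.51 and 0.202 CPM, and no library resembled another.

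Of 33 innate sensing genes 9 (27.3%) were expressed and 10 (30.3%) were silent, against 60.6% and 17.9% of all protein-coding rows. At least 1 CPM in at least 2 libraries was reached by 12. EIF2AK2, the kinase PKR that senses double-stranded RNA, had 243, 299 and 349 CPM, and MAVS, the adaptor of RNA helicase sensing, had 35.5, 35.9 and 103 CPM. The DNA-sensing pair was weak: CGAS had 0.793, 0.122 and 0.461 CPM and STING1 had 2.55, 3.10 and 3.14 CPM. The Toll-like receptors TLR2, TLR4, TLR7 and TLR8 were silent, as were OAS1, OAS2 and OAS3.

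**Figure D4:**
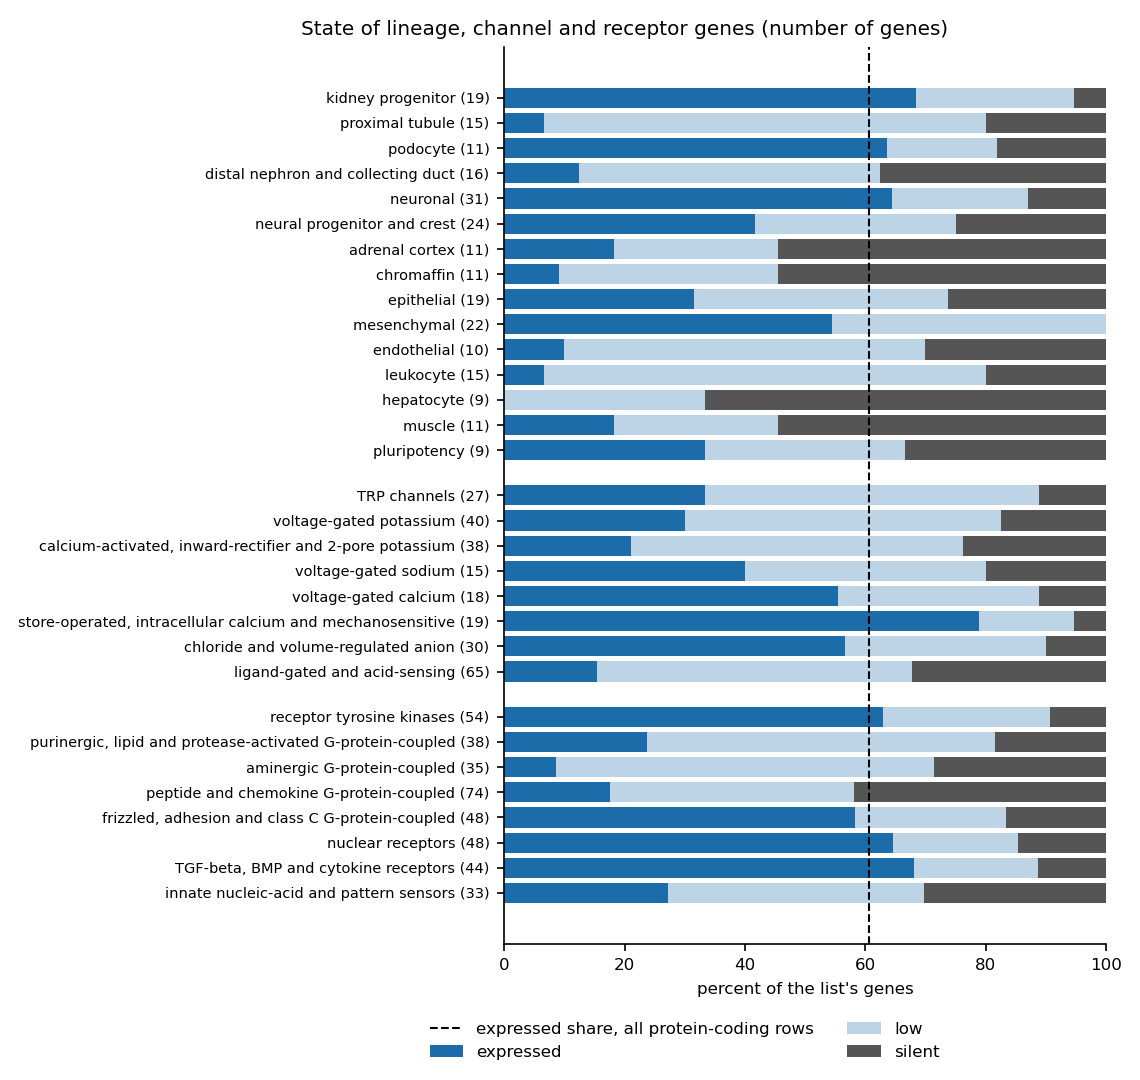
Percent of genes expressed (at least 1 CPM in every library), low and silent (at most 3 counts in every library) in each lineage, channel and receptor list, with the number of genes in parentheses. The dashed line is the expressed share of all protein-coding rows, 60.6%. The list of store-operated, intracellular calcium and mechanosensitive genes lies furthest above it and hepatocyte genes furthest below it.

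Replicate 3 was the lowest library for many list genes. Among 11661 expressed protein-coding rows it was lowest in 5072 (43.5%), while replicate 1 was lowest in 3326 and replicate 2 in 3263. Among the expressed list genes it was lowest in 47 of 81 lineage, 44 of 87 channel and 95 of 157 receptor genes. With TMM scaling the background was 38% and the counts were 42 of 81, 35 of 88 and 87 of 157. The channel share was then near the background. Between the highest and the lowest library, 32 of 81 lineage, 37 of 87 channel and 72 of 157 receptor genes were over 2-fold apart, against 32.1% of all expressed protein-coding rows. List genes were lower in level than those rows, with medians of 11.8, 8.39 and 13.1 CPM against 30.7 CPM.

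The spread among the libraries was then measured over all genes. Across 12875 expressed rows the Pearson correlation of log2(CPM + 1) was 0.945 between replicates 1 and 2, 0.919 between 1 and 3 and 0.921 between 2 and 3. These are correlations across genes, and genes are not independent replicates. Chi-square per degree of freedom was 169, 193 and 273, beyond sampling noise in each pair, so no 2 libraries were counted as 1 sample. The common biological coefficient of variation estimated with edgeR over 15263 rows was 0.424. Among 9239 rows with a mean of at least 10 CPM, the median ratio of the highest to the lowest library was 1.57 (quartiles 1.29 and 2.17), 2739 rows (29.6%) were over 2-fold apart, 781 over 4-fold, 265 over 10-fold and 58 over 100-fold. At 10 CPM counting alone gives a coefficient of variation of 5.42% in the smallest library, and the median over these rows was 23.3%. The share of rows over 2-fold apart was 39.1% at 10 to 30 CPM, 29.1% at 30 to 100 CPM, 18.6% at 100 to 300 CPM and 14.9% at 300 to 1000 CPM. Above 1000 CPM, where 96 rows are left, it was 20.8%.

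Some rows were present in 1 or 2 libraries and absent from the rest. Of the 9239 rows, 28 had at most 3 counts in at least 1 library, and 18 had no count in at least 1. The nucleoporin-associated gene AHCTF1 had 20, 12915 and 7716 counts, and TCAF1 had 2, 5871 and 5622 counts, both all but missing from replicate 1. RNF169, a ubiquitin-binding protein of DNA repair, had 3039, 2855 and 0 counts, missing from replicate 3, and PM20D2 had 2973, 0 and 1586 counts, missing from replicate 2. NUDT4 had 0, 2693 and 0 counts, and IQSEC1 had 7, 5 and 1194 counts. ERO1A, an oxidase of the endoplasmic reticulum, had 4516, 7649 and 32 counts, and KIF20B, a mitotic kinesin, had 6771, 7428 and 48 counts. Each library had such gaps: among the 265 rows over 10-fold apart, replicate 1 was the lowest in 96, replicate 2 in 87 and replicate 3 in 82. Whether these gaps arose in the cells, in the libraries or in the assignment of reads to gene rows was not tested.

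For 3 rows with no count in 1 library the deposited names join 2 neighbouring genes. They were picked after their values were seen, other rows with joined names were not examined, and the sums below leave out the first gene of each name. SENP3-EIF4A1 had 402, 255 and 0 CPM, while EIF4A1, the RNA helicase of translation initiation contained in it, had 402, 399 and 861 CPM. Their sum was 803, 653 and 861 CPM, 1.32-fold between the highest and the lowest library, against 2.16-fold for EIF4A1 alone. In replicate 1 both rows had exactly the same value, 401.587 CPM. Whether they hold the same reads was not tested, so this sum may count reads more than once. For BCL2L2-PABPN1 and PABPN1, a poly(A)-binding protein, the sum spanned 1.29-fold against 1.98-fold for PABPN1 alone. For BLOC1S5-TXNDC5 and TXNDC5 the sum spanned 2.28-fold against 3.26-fold.

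Rows that were uneven had some features in common. The 255 protein-coding rows over 10-fold apart had a median longest exon of 3074 bases, against 2063 bases in the 1834 rows within 1.25-fold, and a median longest transcript of 5542 against 3609 bases. They had a median of 6 against 9 annotated transcripts, overlapped another gene in 38.8% against 52.1% of cases and had a median level of 21.2 against 71.3 CPM. Over 6 equal classes of longest-exon length, the share over 10-fold apart went from 1.34% in the shortest to 4.85% in the longest. Median CPM was 44.9 in the former and 57.5 in the latter. The part of these features in the spread was not tested.

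Single libraries also stood apart from the other two. At more than 2-fold, replicate 3 was above both others in 347 rows and below both in 581, replicate 1 in 143 and 389, and replicate 2 in 155 and 314. With TMM scaling replicate 3 was above in 436 and below in 492, a more even split. Among the rows furthest apart, CDC25A, the phosphatase that drives entry into S phase, had 477, 49.7 and 40.8 CPM, E2F3, a cell-cycle transcription factor, had 3.67, 82.7 and 3.97 CPM, and ABLIM1, an actin-binding protein, had 3.96, 7.31 and 157 CPM. At the other end, 44 of 2394 rows of at least 100 CPM agreed within 1.05-fold. POLDIP3 had 116, 117 and 117 CPM, UBE2S, a ubiquitin-conjugating enzyme of mitosis, had 108, 108 and 109 CPM, and DNM1L, the GTPase of mitochondrial fission, had 323, 319 and 321 CPM.

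**Figure D5:**
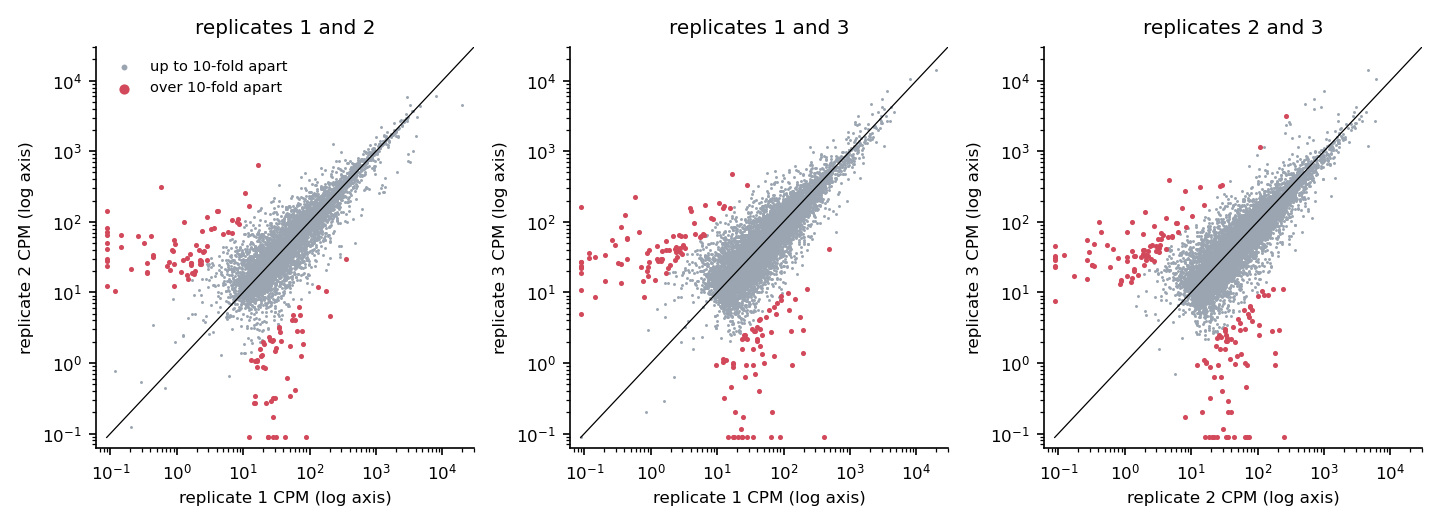
CPM of rows with a mean of at least 10 CPM in each pair of replicates (both axes log), with rows over 10-fold apart in red and values under 3 counts drawn at the floor. Most rows follow the diagonal, and a sparse set lies along the axes in every pair.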

How the data were processed

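The authors deposited raw counts per gene row for 12 libraries in 1 table, of which the 3 columns of fed vector cells were used and the other 9 were not. FastQC, fastp, HISAT2, StringTie, DESeq2 and GRCh38 are named in the submitters' processing notes, without versions. The annotation behind the rows, the strand setting and whether values were counted directly or estimated and rounded are not given in the sources used here, so reads of overlapping, antisense or near-identical genes may be divided in ways that move single values. A second table, of normalized values, was not used. Libraries held 34059864 to 41024433 counts.

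CPM used library totals. Gene types and lengths came from GENCODE release 29 (GRCh38): 39304 rows matched by identifier, 1958 by symbol (4.23% to 4.58% of counts) and 616 not at all (0.175% to 0.201%). TPM used the union of exons. RefSeq promoters (GRCh38.p14) matched 15261 protein-coding rows. edgeR 4.0.16 gave TMM factors and the dispersion (intercept only, filterByExpr), DESeq2 1.42.0 other size factors, under R 4.3.3 and Python 3.11.15. The dispersion script was checked on simulated data. With 1 group there was no test between conditions. Wilson 95% intervals cover counting error only.

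The gene lists, from general knowledge, and the members were chosen with earlier results of these data known. TDGF1, 1 of the listed genes, was not found by symbol. Some genes are counted in the lists and classes but not reported here by name. The rule for named genes took MCOLN3, the 20 rows of highest mean CPM, the 10 protein-coding genes of highest TPM, the top 3 of each class, and, for each list, the first 3 members, the 6 highest expressed and up to 6 silent ones. For spread it took the 12 rows with the largest ratio and the 5 furthest above and below in each library. All other genes named, among them SIX2, WT1, EGFR, MCOLN1, STIM2, ORAI3, PACC1, KCNG3, CHRNA3, LPAR1, ADCYAP1R1, CGAS, RPLP1, AHCTF1, TCAF1, ERO1A and KIF20B, were chosen after their values were seen. Alternatives were other scalings, CPM limits, denominators and gene lengths, and each replicate left out in turn. The requirement of 1 CPM in at least 2 libraries for the lists was added after seeing the data.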

Additional observations from a re-analysis of the deposited data

How the results depend on the processing

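Of 78 alternatives to the 11 main values, 58 stayed within the replicate spread or within 1.5 times the count, and 20 moved. Of 369 alternatives for single lists, classes and genes 310 stayed and 59 moved. For a mean share, leaving out 1 of 3 libraries cannot move it past their SD. Those alternatives stayed by arithmetic and say nothing of stability. As a share of TPM in place of counts, the mitochondrial genome held 18.1%, ribosomal proteins 8.98%, and the 10, 100 and 1000 most abundant genes 16.4%, 34.5% and 64.3%, because short genes weigh more per length. Without mitochondrial genes in the total, the same 3 groups held 4.18%, 17.7% and 50.9%. At 5 CPM in every library, 50 lineage, 42 channel and 94 receptor genes were expressed. The number of expressed rows ran from 9628 at 5 CPM to 17080 at over 3 counts in every library. Leaving out each replicate in turn gave 2.73% to 5.05% for the mitochondrial genome, 7.02% to 7.85% for ribosomal proteins, 5.004% to 5.97%, 19.2% to 20.5% and 52.1% to 52.95% for the 10, 100 and 1000 most abundant genes, and 13131 to 13520 expressed rows. For the lists it gave 81 to 92 lineage, 91 to 106 channel and 158 to 175 receptor genes, highest without replicate 3 in each.

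The biological coefficient of variation was 0.560 with no filter on low counts, which adds rows near 0, and 0.372 to 0.449 without each replicate. It was lowest without replicate 3. Rows over 2-fold apart numbered 5186 at a mean of at least 1 CPM and 948 at 50 CPM, 5096 were over 1.5-fold and 781 over 4-fold, and leaving out each replicate gave 1122 (without replicate 3) to 1772 (without replicate 2), since a ratio over 2 libraries is bounded by that over 3. Another scaling moved that count little, to 2720 with TMM. Depth limits calls near the floor of 3 counts. No paired analysis was possible because there is 1 group and no test between groups.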
